A study of Homo sapiens with 9 samples.

Results

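The genes described here are matrix proteases, their inhibitors and the lysyl oxidases, measured by RNA sequencing in A549 cells, an established human lung adenocarcinoma line. They were taken from a list of 43 symbols of the matrix metalloprotease (MMP), TIMP, ADAM, ADAMTS, lysyl oxidase (LOX) and plasminogen activator families. Of these, 42 matched 1 gene ID each among the 57905 IDs of the deposited count table, and MMP28 was not analysed here. The control group held 3 libraries named plko and labelled as scrambled controls. The shAKR1B1 group held 3 libraries of cells with a short hairpin RNA against aldose reductase, and the shSORD group held 3 libraries of cells with a hairpin against sorbitol dehydrogenase. These enzymes form the polyol pathway, by way of which glucose is turned into sorbitol and then fructose, and the series asks how that pathway relates to the aggressiveness of cancer cells. All groups were A549 cells grown with 5% serum. The labels name 1 hairpin group per target and 1 control group, so an effect of a single hairpin or of the control population cannot be told apart from the knockdown. The 3 libraries of a group are described as biological replicates, without saying whether they were separate transductions, so the p-values speak of the spread among libraries that may share a culture.

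MMPs are zinc proteases that cut collagens, laminins and other matrix proteins. Most are secreted as inactive zymogens, the membrane-type MMPs are anchored at the cell surface, and TIMPs block their active sites. ADAMs are membrane-bound relatives that release the outer parts of growth factors and adhesion molecules, and ADAMTS proteases are secreted and cut proteoglycans or process collagens and fibrillins. Lysyl oxidases cross-link collagen and elastin. The plasminogen activators uPA (PLAU) and tPA (PLAT) turn plasminogen into plasmin, a protease that degrades fibrin and can activate MMP zymogens. In carcinomas much of the MMP supply comes from stromal cells, whereas here the carcinoma cells were cultured alone.

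Total counts per library ranged from 32436524 to 43044456. AKR1B1 was at 1395 to 1456 CPM (read counts scaled to the TMM-adjusted library total) in control cells, 145.9 to 167.3 CPM under its own hairpin and 945.0 to 1135 CPM with shSORD. SORD was at 41.7 to 44.1 CPM in control, 30.2 to 31.0 CPM with shAKR1B1 and 8.18 to 9.0 CPM with shSORD. Both targets were lowest under their own hairpin, and AKR1B1 (adjusted p = 0.000131) and SORD (adjusted p = 6.43e-06) also fell under the other. Of the lung carcinoma markers KRT8, KRT18, KRT7, KRT19, EPCAM and CDH1, the summed level was 8686 to 8908 CPM in control, 12317 to 12941 CPM with shAKR1B1 and 10748 to 12800 CPM with shSORD. KRT8 and KRT18 made up most of the sum, and 5 of the 6 rose in both knockdowns. KRT7 fell 1.69-fold with shAKR1B1 (adjusted p = 3.07e-07) and 1.15-fold with shSORD (adjusted p = 0.019). Endothelial markers (VWF, CDH5, KDR and TEK) summed to at most 0.285 CPM in any library. Among leukocyte markers CD3E was at 0 in every library and PTPRC at most at 0.0919 CPM, while CD14 gave most of the sum of 2.86 to 9.75 CPM. The 8 fibroblast markers summed to 16.2 to 17.8 CPM in control, 9.23 to 10.7 CPM with shAKR1B1 and 35.4 to 56.9 CPM with shSORD. COL1A1 made up most of that sum. With shSORD, COL1A1, COL1A2, COL3A1, LUM and PDGFRB rose (edgeR adjusted p = 7.32e-07, 9.63e-05, 3.87e-05, 0.000122 and 0.00127), THY1 did not pass (0.0644), and PDGFRA and DCN were below the expression filter. COL1A2 had 4 to 11 counts per library in control and 43 to 217 with shSORD, COL3A1 4 to 5 and 25 to 111, PDGFRB 5 to 11 and 16 to 46, and LUM 0 to 2 and 14 to 22. Of these, COL1A1 and THY1 fell with shAKR1B1 and LUM rose (adjusted p = 0.000244, 1.27e-05 and 0.0037). In bulk RNA, fewer cells of a kind and less RNA per cell cannot be told apart.

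Per kilobase of exon, the members that passed the expression filter ranged in control cells from 0.0124 CPM (MMP16) to 60.5 CPM (ADAM9). ADAM9, a widely expressed sheddase, and the inhibitor TIMP1 stood highest, at 60.5 and 58.1 CPM per kilobase. PLAU followed at 40.9, LOXL2 at 40.3 and TIMP2 at 36.3 CPM per kilobase. Within the MMP family the neuronal membrane-type protease MMP24 (18.8 CPM per kilobase) and matrilysin MMP7 (11.6 CPM per kilobase) were highest, and the gelatinase MMP2 was at 1.46 CPM per kilobase. These values use the merged exon length of GENCODE 29, so neighbours in the order can change with the transcripts in use. In all, 35 of the 42 members passed the expression filter. The other 7 were the collagenases MMP1 and MMP13, the stromelysins MMP3 and MMP10, MMP19, the GPI-anchored MMP25 and LOXL1. MMP3 had 1 count in a single library and MMP13 at most 1 count in any, while MMP1 reached 6, MMP10 9, MMP25 10 and LOXL1 12 counts. MMP19 was counted 2 to 6 times per library in the control and shSORD groups and 0 times in all shAKR1B1 libraries. A count of 0 allows up to 3 counts in a library (0.0697 to 0.0925 CPM). Genes on the other strand share 17.42% of the exon bases of MMP19 (TMEM198B, 377 to 811 counts). For MMP25 the share is 35.24% (MMP25-AS1, 74 to 201 counts).

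**Figure D1:**
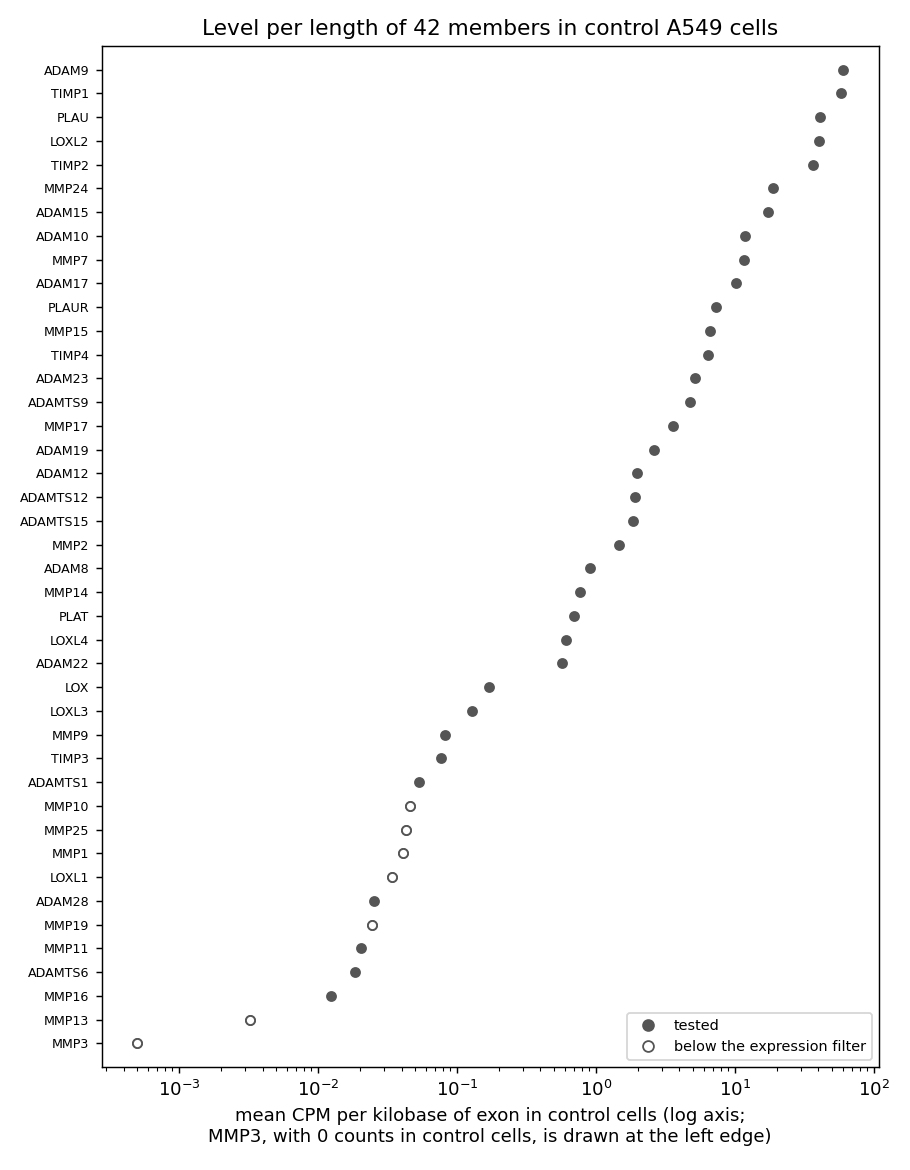
Mean level of each of the 42 members in the 3 control libraries, in CPM per kilobase of merged exon on a log axis. Open circles are the 7 members below the expression filter. ADAM9 (60.5) and TIMP1 (58.1) lie at the top, and the stromelysin MMP3 and the collagenase MMP13 lie lowest.

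With AKR1B1 knockdown, 15 of the 35 tested members fell and 10 rose, and with SORD knockdown 8 fell and 14 rose. Of the members 71.4% were called with shAKR1B1, beside 57.4% of all genes tested, and 62.9% with shSORD, beside 56.5%. A gene was called, and is said to have risen or fallen, where its Benjamini-Hochberg adjusted p in edgeR's quasi-likelihood test was under 0.05. Over all 16916 genes tested, 29.6% fell and 27.8% rose with shAKR1B1, and 29.0% fell and 27.5% rose with shSORD. The members' median log2 fold change was -0.15 with shAKR1B1 and 0.14 with shSORD, beside a median of 0.00 over all genes in both comparisons. At a change of at least 2-fold, 7 members fell and 5 rose with shAKR1B1, where 3.93% and 8.45% of all genes did, and 2 fell and 3 rose with shSORD, where 3.10% and 8.02% did. The comparisons share their control libraries, so the difference between the knockdowns was tested directly. In that test 17 members were lower and 6 higher in shAKR1B1 than in shSORD cells, where 15.1% of all genes were lower and 15.5% higher (30.7% in either direction). At 2-fold or more 5 members were lower and 3 higher, beside 2.72% and 2.47% of all genes. The members' median difference was -0.33 on the log2 scale, beside 0.01 over all genes.

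**Figure D2:**
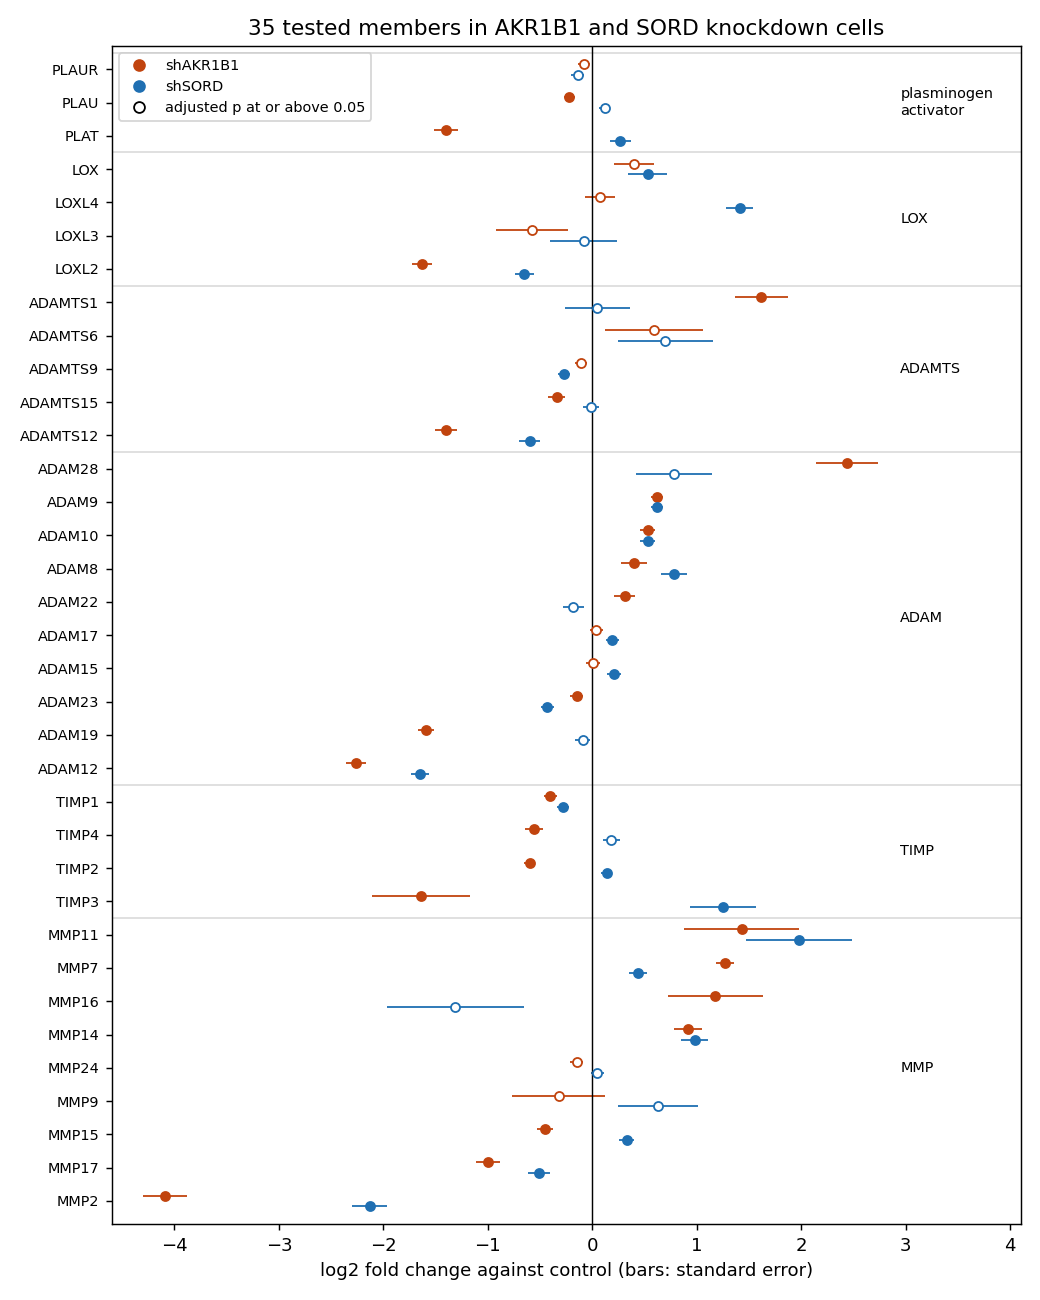
Fitted log2 fold change against control for the 35 tested members, by family, with shAKR1B1 in orange and shSORD in blue. Bars are standard errors and open circles mark an adjusted p at or above 0.05. MMP2 (-4.09 and -2.13) and ADAM12 (-2.26 and -1.65) lie farthest to the left, and the 4 TIMPs lie left of 0 with shAKR1B1.

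MMP2, or gelatinase A, which cuts denatured collagens and basement membrane collagen, showed the largest fold of any tested member in both knockdowns. It was at 7.21, 7.16 and 7.25 CPM in control replicates 1 to 3, at 0.337, 0.247 and 0.650 CPM with shAKR1B1 and at 1.53, 1.97 and 1.43 CPM with shSORD. The 3 groups did not overlap. The log2 fold change was -4.09 with shAKR1B1 (SE 0.213, adjusted p = 7.35e-10) and -2.13 with shSORD (SE 0.168, adjusted p = 8.77e-08). The shAKR1B1 level rests on 10 to 28 counts per library, and MMP2 was 3.90-fold lower in shAKR1B1 than in shSORD cells (adjusted p = 3.43e-05). With shAKR1B1 replicate 3 left out the fall with shAKR1B1 was -4.63 on the log2 scale.

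MMP7, or matrilysin, a small MMP made by epithelial cells rather than stroma, moved the other way. It was at 26.2, 26.5 and 28.0 CPM in control, 68.2, 62.5 and 64.4 CPM with shAKR1B1, and 42.3, 33.1 and 34.5 CPM with shSORD. All shAKR1B1 libraries lay above all shSORD libraries, which in turn lay above the controls. It rose 2.41-fold with shAKR1B1 (log2 fold change 1.27, SE 0.0837, adjusted p = 9.23e-09) and 1.36-fold with shSORD (0.44, adjusted p = 0.000403), and the knockdowns differed (0.83, adjusted p = 2.17e-06). In the RefSeq gene order on chromosome 11, MMP7 stands at 1 end of a run of neighbouring MMP genes, followed by MMP20, MMP27, MMP8, MMP10, MMP1, MMP3, MMP12 and MMP13. Of the 8 genes of that run with an ID matched here, only MMP7 passed the expression filter, and the other 7 had at most 9 counts in any library.

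The membrane-type MMPs did not move as 1 group. MMP14, or MT1-MMP, the main surface activator of the MMP2 zymogen, was at 3.15, 3.58 and 3.51 CPM in control, 6.43, 6.83 and 6.12 CPM with shAKR1B1 and 6.81, 7.95 and 5.47 CPM with shSORD. Every knockdown library lay above every control library. MMP14 rose 1.89-fold with shAKR1B1 (adjusted p = 3.21e-05) and 1.97-fold with shSORD (adjusted p = 1.81e-05), and the knockdowns differed by -0.06 on the log2 scale (SE 0.122, adjusted p = 0.745).

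MMP15, or MT2-MMP, split between the knockdowns. Its level was 31.5, 27.5 and 28.4 CPM in control, 22.0, 20.4 and 21.8 CPM with shAKR1B1, and 37.1, 39.3 and 33.7 CPM with shSORD. The controls lay between the knockdowns with no overlap. It fell 1.36-fold with shAKR1B1 (adjusted p = 0.000152), rose 1.26-fold with shSORD (adjusted p = 0.00148) and was 1.72-fold lower in shAKR1B1 than in shSORD cells (adjusted p = 1.81e-06). The GPI-anchored MMP17 fell 1.99-fold with shAKR1B1, from 14.3 ± 0.373 to 7.19 ± 0.974 CPM (SD, n = 3; edgeR adjusted p = 2.74e-06), and 1.43-fold with shSORD, to between 8.43 and 11.1 CPM (adjusted p = 0.000981).

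MMP24, or MT5-MMP, was at 80.8 to 85.1 CPM in control, 73.9 to 75.6 CPM with shAKR1B1 and 79.2 to 94.9 CPM with shSORD. Neither knockdown passed against control (adjusted p = 0.0533 and 0.531), and shAKR1B1 was lower than shSORD by 0.20 on the log2 scale (adjusted p = 0.026). That difference lost its call without control replicate 3, without shAKR1B1 replicate 1, 2 or 3, or without shSORD replicate 2 (adjusted p = 0.0527, 0.0846, 0.0906, 0.0572 and 0.075). It also ended with only the 6 libraries compared (adjusted p = 0.0639). Against control, the lower level with shAKR1B1 passed in the fit that left out shSORD replicate 2 (adjusted p = 0.00792) or 3 (0.0317), with only the 6 libraries compared (0.00533) and with no expression filter (0.0437). MMP24 shares 18.1% of its exon bases with MMP24OS on the other strand, which had 1109 to 1607 counts, and the strand setting of the counting is not given.

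The other tested MMPs were scarce. MMP11, or stromelysin-3, ranged over 2 to 7 counts in control cells, 4 to 16 in shAKR1B1 cells and 13 to 23 in shSORD cells. It rose with shSORD (log2 fold change 1.98, adjusted p = 0.00391, and 2.63 without control replicate 2) and with shAKR1B1 (1.43, adjusted p = 0.0375, and 2.08 without control replicate 2). The shAKR1B1 call ended without control replicate 1, control replicate 3, shAKR1B1 replicate 2 or shAKR1B1 replicate 3 (adjusted p = 0.106, 0.135, 0.145 and 0.100). MMP16, or MT3-MMP, had 5 to 6, 11 to 15 and 0 to 4 counts in control, shAKR1B1 and shSORD libraries. It was higher in shAKR1B1 than in shSORD cells (log2 difference 2.5, adjusted p = 0.00286, and 3.09 without shSORD replicate 3). Its rise with shAKR1B1 against control (1.18, adjusted p = 0.0367) lost its call without control replicate 1, 2 or 3 (adjusted p = 0.0705, 0.101 and 0.0779) and without shAKR1B1 replicate 1 or 3 (0.133 and 0.064). The gelatinase MMP9 had 4 to 15 counts per library and passed in no comparison. MMP9 shares 18.41% of its exon bases with SLC12A5-AS1 on the other strand, which had 4 to 18 counts.

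All 4 TIMPs fell with AKR1B1 knockdown, where 29.6% of all genes fell. TIMP1 was the 1 TIMP that fell with SORD knockdown, where 29.0% of all genes did. TIMP1 was at 92.0, 86.8 and 89.6 CPM in control, 65.4, 66.6 and 71.7 CPM with shAKR1B1 and 76.9, 75.4 and 69.5 CPM with shSORD. The knockdowns overlapped each other and lay below the controls. TIMP1 fell 1.32-fold with shAKR1B1 (adjusted p = 4.23e-05) and 1.21-fold with shSORD (adjusted p = 0.00106), and the knockdowns differed by -0.12 (SE 0.0594, adjusted p = 0.135, and 0.0226 without shSORD replicate 3).

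TIMP2, which both inhibits MMPs and bridges MMP14 to the MMP2 zymogen, was at 201.0, 202.8 and 209.1 CPM in control. With shAKR1B1 it was at 131.6, 129.3 and 143.6 CPM, and with shSORD at 216.7, 228.2 and 230.0 CPM. The shAKR1B1 libraries stood well below the others, and the shSORD libraries slightly above the controls. It fell 1.51-fold with shAKR1B1 (adjusted p = 2.62e-07) and was 1.67-fold lower there than in shSORD cells (adjusted p = 9.93e-08). The rise with shSORD was 1.10-fold (adjusted p = 0.0377). That rise lost its call without control replicate 1, 2 or 3 (adjusted p = 0.126, 0.113 and 0.0518), shAKR1B1 replicate 1 (0.0548) or shSORD replicate 2 (0.0522).

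TIMP4 fell 1.48-fold with shAKR1B1, from 10.6 ± 0.829 to 7.19 ± 0.259 CPM (SD, n = 3; edgeR adjusted p = 5.23e-05). With shSORD it was at 12.0 ± 0.575 CPM (adjusted p = 0.0778, and 0.0402 and 0.0383 without control replicate 1 and shSORD replicate 3). TIMP3, which binds to the matrix and also inhibits ADAM17, was far scarcer, with 13, 15 and 12 counts in control replicates 1 to 3, 1, 6 and 6 in shAKR1B1 cells and 24, 46 and 31 in shSORD cells. No count of 1 group reached the range of another. It fell with shAKR1B1 (log2 fold change -1.64, SE 0.469, adjusted p = 0.00782) and rose with shSORD (1.25, SE 0.313, adjusted p = 0.00338). Between the knockdowns the difference was -2.88 (SE 0.394, adjusted p = 5.19e-05). The summed fibroblast markers were also highest with shSORD (35.4 to 56.9 CPM), and their part in the TIMP3 rise was not tested.

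**Figure D3:**
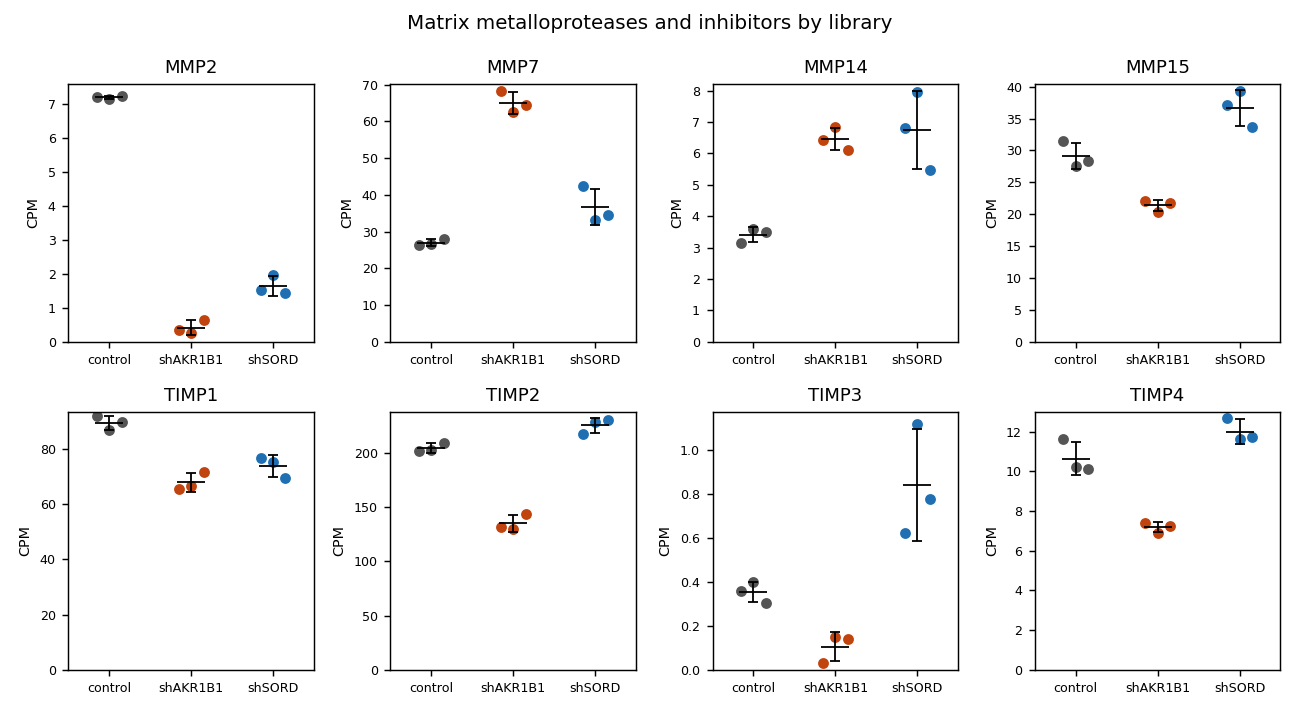
CPM of 4 MMPs and 4 TIMPs in each of the 9 libraries, with the mean and SD of the 3 libraries of a group. MMP2 falls from about 7.21 CPM in control to 0.411 with shAKR1B1 and 1.64 with shSORD, MMP7 and MMP14 lie above control in both knockdowns, and MMP15, TIMP2 and TIMP3 lie below control with shAKR1B1 and above it with shSORD.

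Among the ADAMs 5 rose and 3 fell with shAKR1B1, and 5 rose and 2 fell with shSORD, of 10 tested. Over all genes tested, 27.8% rose and 29.6% fell with shAKR1B1, and 27.5% and 29.0% with shSORD. ADAM12 and ADAM19 had the largest falls with shAKR1B1, and ADAM12 and ADAM23 with shSORD. ADAM12, a sheddase of EGF-like growth factors that is made mainly in developing mesenchyme and in tumours, was at 17.4, 20.7 and 20.1 CPM in control, 4.23, 3.75 and 4.18 CPM with shAKR1B1 and 5.90, 6.36 and 6.32 CPM with shSORD. Both knockdowns lay far below the controls, and shAKR1B1 below shSORD. It fell 4.79-fold with shAKR1B1 (log2 fold change -2.26, SE 0.094, adjusted p = 6.63e-11) and 3.13-fold with shSORD (-1.65, SE 0.0889, adjusted p = 1.65e-09), and the difference between them was -0.62 (adjusted p = 0.000289).

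ADAM19 was at 19.9, 19.9 and 20.9 CPM in control, 6.95, 6.86 and 6.43 CPM with shAKR1B1 and 18.0, 18.4 and 20.5 CPM with shSORD. Its shAKR1B1 libraries stood apart, while the shSORD and control libraries overlapped. It fell 3.00-fold with shAKR1B1 (adjusted p = 4.5e-10) and was at -0.09 on the log2 scale with shSORD (SE 0.0718, adjusted p = 0.292). The direct difference was -1.49 (SE 0.0788, adjusted p = 3.84e-09).

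ADAM9 and ADAM10 rose in both knockdowns, and ADAM17 was called with shSORD alone. ADAM9 was at 413.9, 427.5 and 412.9 CPM in control, 646.4, 631.2 and 656.2 CPM with shAKR1B1 and 617.2, 606.3 and 703.7 CPM with shSORD. All knockdown libraries lay above all controls, and the knockdowns overlapped. The rise was 1.54-fold in both (adjusted p = 3e-07 and 4.18e-07), with a difference of 0.00 between them (SE 0.0568). ADAM10, which sheds Notch, E-cadherin and EGF, rose 1.44-fold in both, from 190.2 ± 5.49 CPM to 274.7 ± 13.4 CPM with shAKR1B1 (SD, n = 3; edgeR adjusted p = 1.32e-05) and 273.8 ± 30.3 CPM with shSORD (adjusted p = 1.67e-05). ADAM17, the sheddase of TNF and of most EGF receptor ligands, was at 108.2 to 109.9 CPM in control, 111.2 to 114.4 CPM with shAKR1B1 (adjusted p = 0.578) and 112.8 to 135.8 CPM with shSORD. It rose 1.14-fold with shSORD (adjusted p = 0.0166, and 0.0594 without control replicate 1). The knockdowns did not differ by call (-0.15, adjusted p = 0.0843, and 0.00333 without shSORD replicate 2). Exons of ADAM17 share 12.31% of their bases with IAH1 on the other strand, which had 2429 to 3051 counts.

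ADAM8, a protease best known from leukocytes, rose 1.72-fold with shSORD, from 4.34 ± 0.26 to 7.46 ± 0.96 CPM (SD, n = 3; edgeR adjusted p = 8.89e-05), and 1.32-fold with shAKR1B1 (adjusted p = 0.0157). The shAKR1B1 call ended without control replicate 3 (0.0577) or shAKR1B1 replicate 2 (0.0742), and the lower level in shAKR1B1 than in shSORD cells (-0.38, adjusted p = 0.0255) ended without shAKR1B1 replicate 1 or 3 or shSORD replicate 1 or 2 (adjusted p = 0.0605, 0.130, 0.0695 and 0.081). ADAM15 rose 1.15-fold with shSORD (adjusted p = 0.0165), with a library range of 116.4 to 141.5 CPM that overlapped the controls at 110.0 to 117.3 CPM. Without control replicate 2 or shSORD replicate 1 the adjusted p was 0.0735 and 0.0516. Its lower level in shAKR1B1 than in shSORD cells (-0.20, adjusted p = 0.0374) rests on every library but 1: the call ended in all leave-one-out fits except that without shSORD replicate 3, with adjusted p from 0.0526 to 0.146.

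ADAM22 and ADAM23, which lack protease activity and act as receptors for LGI proteins in neurons, moved little. ADAM23 fell 1.35-fold with shSORD (adjusted p = 3.08e-05) and 1.11-fold with shAKR1B1 (adjusted p = 0.0419). The latter call ended without control replicate 1, 2 or 3 (adjusted p = 0.0759, 0.109 and 0.148), shAKR1B1 replicate 1, 2 or 3 (0.135, 0.0742 and 0.117) or shSORD replicate 1 (0.0808). It also ended with DESeq2 (0.0697), with DESeq2's size factors in edgeR (0.0586), with no expression filter (0.0957) and with a stricter filter (0.109). ADAM22 rose 1.24-fold with shAKR1B1 (adjusted p = 0.0151, and 0.0671 without control replicate 2) and was 1.40-fold higher there than in shSORD cells (adjusted p = 0.00155). ADAM28 had 6, 9 and 12 counts in control, 52, 55 and 44 with shAKR1B1 and 17, 12 and 20 with shSORD. It rose with shAKR1B1 (log2 fold change 2.44, SE 0.298, adjusted p = 5.94e-06) and was at 0.78 with shSORD (adjusted p = 0.081, and 0.0366 without shSORD replicate 2).

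Among the secreted ADAMTS proteases, ADAMTS12 fell, ADAMTS1 rose and ADAMTS9 and ADAMTS15 changed little. ADAMTS12, which cuts cartilage oligomeric matrix protein, was at 18.4, 18.5 and 19.2 CPM in control, 6.34, 6.81 and 8.0 CPM with shAKR1B1 and 10.5, 12.3 and 14.1 CPM with shSORD. The 3 groups did not overlap. It fell 2.64-fold with shAKR1B1 (adjusted p = 4.75e-08) and 1.51-fold with shSORD (adjusted p = 0.000156), with a difference of -0.80 between the knockdowns (adjusted p = 5.43e-05).

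ADAMTS1, ADAMTS9 and ADAMTS15 cut the proteoglycans versican and aggrecan. ADAMTS9, the highest of the family per length (4.79 CPM per kilobase in control), was at 50, 54.1 and 49.2 CPM in control, 46.0, 47.6 and 48.0 CPM with shAKR1B1 and 41.6, 42.6 and 42.8 CPM with shSORD. The shSORD libraries were lowest. It fell 1.21-fold with shSORD (adjusted p = 0.00108) and did not pass with shAKR1B1 (-0.11, adjusted p = 0.106). The direct difference did not pass either (0.16, adjusted p = 0.0538, but 0.0461 with DESeq2 and 0.0394 without shSORD replicate 3). ADAMTS15 fell 1.27-fold with shAKR1B1 (adjusted p = 0.00225) and was at -0.01 with shSORD (adjusted p = 0.892). ADAMTS1 had 12 to 17 counts in control, 38 to 53 with shAKR1B1 and 14 to 17 with shSORD. It rose 3.08-fold with shAKR1B1 (adjusted p = 6.91e-05). ADAMTS6, with 2 to 12 counts, passed in no comparison.

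The lysyl oxidases were led by LOXL2, which cross-links collagen IV and other collagens and fell in both knockdowns. LOXL2 was at 236.3, 222.1 and 231.9 CPM in control, 66.6, 73.3 and 82.9 CPM with shAKR1B1 and 125.0, 161.6 and 153.5 CPM with shSORD. The order of the 3 groups held in every library. It fell 3.10-fold with shAKR1B1 (log2 fold change -1.63, SE 0.0912, adjusted p = 1.6e-09) and 1.57-fold with shSORD (-0.65, SE 0.0885, adjusted p = 2.06e-05), and was 1.97-fold lower in shAKR1B1 than in shSORD cells (adjusted p = 1.01e-06).

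LOXL4 changed with SORD knockdown and not detectably with AKR1B1 knockdown. Its level was 2.43, 1.86 and 2.42 CPM in control, 2.51, 2.37 and 2.18 CPM with shAKR1B1 and 5.90, 5.44 and 6.45 CPM with shSORD. The shSORD libraries stood apart, and the other groups overlapped. It rose 2.65-fold with shSORD (log2 fold change 1.41, SE 0.129, adjusted p = 3.97e-07), was at 0.07 with shAKR1B1 (SE 0.144, adjusted p = 0.70) and was 2.53-fold lower in shAKR1B1 than in shSORD cells (adjusted p = 1.51e-06). COL1A1, a fibrillar collagen chain that lysyl oxidases cross-link, was at 14.1 to 15.9 CPM in control, 8.21 to 9.57 CPM with shAKR1B1 and 31.4 to 46.0 CPM with shSORD. It fell with shAKR1B1 (log2 fold change -0.75, adjusted p = 0.000244) and rose with shSORD (1.28, adjusted p = 7.32e-07).

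LOX, the founding member, was scarce, at 34 to 37 counts in control cells, 43 to 55 in shAKR1B1 cells and 51 to 60 in shSORD cells. It rose 1.44-fold with shSORD (adjusted p = 0.0272), a call lost without control replicate 1, 2 or 3 (adjusted p = 0.0656, 0.0537 and 0.0686) or shSORD replicate 1 (0.0916) and with DESeq2 (0.068). With shAKR1B1 it was at 0.40 on the log2 scale (adjusted p = 0.0935, and 0.0342 without shAKR1B1 replicate 3). The knockdowns differed by -0.13 (SE 0.181, adjusted p = 0.618). LOXL3, at 8 to 24 counts, passed in no comparison. It shares 14.33% of its exon bases with HTRA2 on the other strand, which had 995 to 1250 counts.

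**Figure D4:**
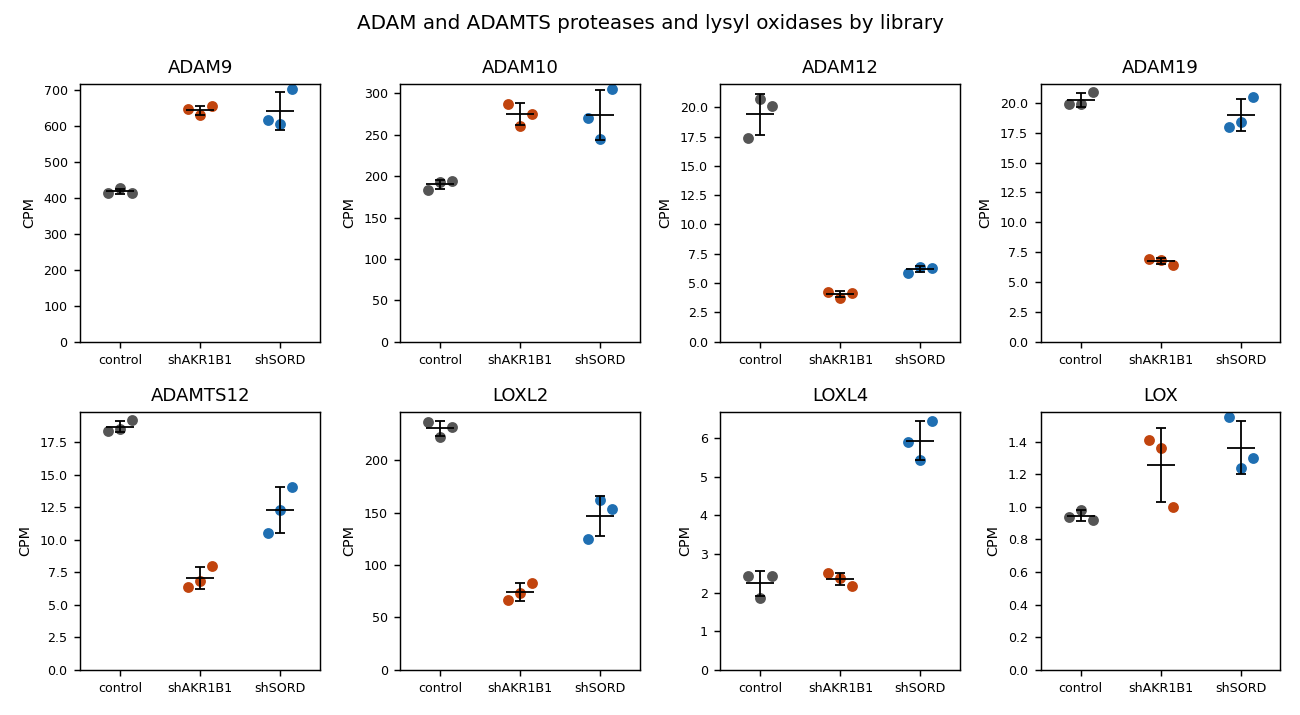
CPM of 4 ADAMs, ADAMTS12 and 3 lysyl oxidases in each library, with the mean and SD of the 3 libraries of a group. ADAM9 and ADAM10 lie above control in both knockdowns, ADAM12, ADAMTS12 and LOXL2 below it, ADAM19 is low in the shAKR1B1 libraries (6.43 to 6.95 CPM), and LOXL4 is high with shSORD (5.44 to 6.45 CPM).

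Of the plasminogen activators, the abundant uPA moved little and the scarce tPA fell with AKR1B1 knockdown. PLAU was at 122.1, 121.4 and 118.3 CPM in control, 101.6, 102.9 and 105.6 CPM with shAKR1B1 and 131.7, 135.6 and 124.5 CPM with shSORD. The groups did not overlap, but the steps were small. It fell 1.17-fold with shAKR1B1 (adjusted p = 0.00185) and was at 0.12 with shSORD (adjusted p = 0.0679, and 0.00697 without shSORD replicate 3). The direct difference was -0.34 (SE 0.0513, adjusted p = 0.000142). PLAU shares 31.05% of its exon bases with C10orf55 on the other strand, which had 25 to 55 counts beside at least 3316 for PLAU.

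PLAT was at 4.31, 4.80 and 4.81 CPM in control, 1.65, 1.83 and 1.76 CPM with shAKR1B1 and 5.31, 5.95 and 5.49 CPM with shSORD. Its shAKR1B1 libraries stood far below the others. It fell 2.65-fold with shAKR1B1 (log2 fold change -1.40, SE 0.118, adjusted p = 1.23e-07) and was 3.18-fold lower there than in shSORD cells (adjusted p = 5.05e-08). The rise with shSORD was 1.20-fold (adjusted p = 0.0357), a call lost without control replicate 1, 2 or 3 (adjusted p = 0.140, 0.0614 and 0.0554), without shSORD replicate 2 (0.111) and with DESeq2 (0.0802). The uPA receptor PLAUR, which holds uPA at the cell surface, was at 32.0 to 33.3 CPM in control, 30.1 to 31.3 CPM with shAKR1B1 and 28.2 to 31.1 CPM with shSORD, and passed in no comparison (adjusted p = 0.266, 0.0665 and 0.526).

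Of the 8 tested partners of this system, 4 rose and 3 fell with shAKR1B1, and 5 rose and 2 fell with shSORD. Beside these counts, 57.4% of all genes were called with shAKR1B1 and 56.5% with shSORD. The serine protease inhibitor SERPINE2 (protease nexin-1) was at 65.6, 66.8 and 63.4 CPM in control, 35.2, 34.0 and 36.7 CPM with shAKR1B1 and 36.5, 36.7 and 39.9 CPM with shSORD. Both knockdowns lay far below the controls. It fell by 0.89 (adjusted p = 1.48e-08) and 0.79 (adjusted p = 6.48e-08) on the log2 scale. TFPI2, an inhibitor of plasmin, rose by 0.16 with shAKR1B1 (adjusted p = 0.0123) and by 0.33 with shSORD (adjusted p = 6.09e-05) on the log2 scale. SERPINF2 rose by 0.72 with shAKR1B1 (adjusted p = 0.000136) and by 0.65 with shSORD (adjusted p = 0.000328). LRP1, which clears protease-inhibitor complexes, rose 1.63-fold and 1.70-fold, and S100A10, a subunit of a plasminogen receptor, 1.31-fold and 1.47-fold, with shAKR1B1 and shSORD. Plasminogen itself (PLG) had at most 1 count in any library.

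**Figure D5:**
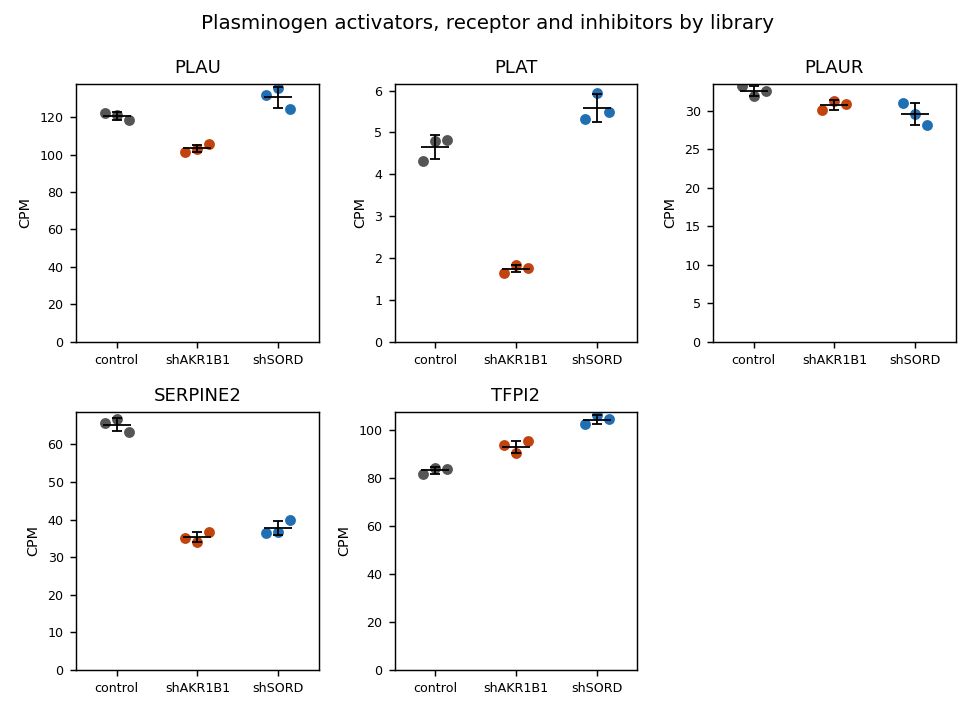
CPM of the plasminogen activators PLAU and PLAT, the receptor PLAUR and the inhibitors SERPINE2 and TFPI2 in each library, with the mean and SD of the 3 libraries of a group. PLAT is lowest with shAKR1B1 (mean 1.75 CPM), SERPINE2 is lower in both knockdowns (35.3 and 37.7 CPM against 65.3 CPM), and PLAUR stays between 28.2 and 33.3 CPM.

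Regulators that act on the metalloproteases changed in both directions. Of 14 tested activators and regulators 5 rose and 6 fell with shAKR1B1, and 6 rose and 5 fell with shSORD. The shares over all genes were 27.8% and 29.6% with shAKR1B1, and 27.5% and 29.0% with shSORD. PCSK5, a proprotein convertase, rose 3.25-fold from 12.8 ± 0.58 to 41.6 ± 1.34 CPM with shAKR1B1 (SD, n = 3; edgeR adjusted p = 3.08e-11) and 2.21-fold with shSORD. Furin (FURIN), the convertase that activates membrane-type MMPs and ADAMs, was at -0.02 with shAKR1B1 (adjusted p = 0.89) and rose 1.31-fold with shSORD (adjusted p = 0.00366), where replicate 3 (75.1 CPM) lay within the control range of 67.4 to 75.6 CPM. RECK, a membrane-anchored MMP inhibitor, rose 1.31-fold and 1.28-fold, and the MMP inducer basigin (BSG) fell 1.15-fold with shAKR1B1 (adjusted p = 0.0189). TSPAN5, a tetraspanin partner of ADAM10, fell 2.07-fold with shAKR1B1 and 2.55-fold with shSORD. The other listed tetraspanins went both ways. TSPAN14 fell 1.60-fold and 1.47-fold and TSPAN17 1.32-fold and 1.20-fold, while TSPAN33 rose 1.54-fold and 1.20-fold. TSPAN15 rose 1.11-fold with shSORD (adjusted p = 0.035) and was at -0.01 with shAKR1B1 (adjusted p = 0.914).

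Most other members of the same families were scarce: 18 of 26 were below the filter, and of the 8 tested 2 rose and 1 fell with shAKR1B1 and 4 rose and 1 fell with shSORD. ADAMTS10, which binds fibrillin, rose 2.10-fold from 43.7 ± 2.57 to 91.9 ± 6.21 CPM with shAKR1B1 (SD, n = 3; edgeR adjusted p = 5.6e-07) and 1.76-fold with shSORD. ADAMTS16 fell 2.85-fold with shAKR1B1 (adjusted p = 5.12e-07) and was at 0.26 with shSORD (adjusted p = 0.081). Of 16 tested collagen maturation genes, 1 rose and 6 fell with shAKR1B1, and 7 rose and 3 fell with shSORD. Beside this list and the family members above, 27.8% of all genes rose and 29.6% fell with shAKR1B1, and 27.5% and 29.0% with shSORD. The cross-linking transglutaminase TGM2 rose 1.51-fold and 1.31-fold. SERPINH1, the collagen chaperone HSP47, and the procollagen protease BMP1 rose with shSORD (1.66-fold and 1.54-fold) and were at 0.02 and 0.00 with shAKR1B1 (adjusted p = 0.817 and 0.999). PLOD2 fell 1.63-fold and 1.28-fold, COLGALT1 1.46-fold and 1.26-fold and PLOD1 1.28-fold and 1.25-fold, with shAKR1B1 and shSORD. P4HA3 fell 1.51-fold with shAKR1B1 (adjusted p = 1.76e-05) and rose 1.72-fold with shSORD (adjusted p = 6.78e-07). Its direct difference was -1.38 (adjusted p = 7.27e-09). SERPINH1, BMP1, PLOD1, PLOD2, COLGALT1 and P4HA3 were chosen after their values were seen.

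Of 17 tested membrane proteins that ADAMs shed, 4 rose and 11 fell with shAKR1B1, where 27.8% of all genes rose and 29.6% fell. With shSORD 3 rose and 9 fell, where 27.5% and 29.0% did, and the list was not tested against other genes. The EGF receptor ligand amphiregulin (AREG) fell 3.21-fold and 3.94-fold and epiregulin (EREG) 2.64-fold and 3.59-fold, with shAKR1B1 and shSORD. EREG stood at 72.1 ± 1.67 CPM in control, 27.3 ± 2.81 CPM with shAKR1B1 and 20.1 ± 2.46 CPM with shSORD. HBEGF fell by 1.07 and 0.58 on the log2 scale. TGFA fell 3.09-fold with shSORD (adjusted p = 1.54e-09) and was at 0.17 with shAKR1B1 (adjusted p = 0.0696), a difference of 1.80 between the knockdowns (adjusted p = 1.57e-09). CDH1, whose product ADAM10 can cut, rose 2.13-fold and 2.21-fold.

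Promoter sequences were available for 25 of the 42 members in the RefSeq table (GRCh38.p14, 250 bases before to 50 after the start site). They were searched on both strands for the AP-1 motif TGANTCA, the TATA motif TATAAA and the ETS motif AGGAAG, which reads as CTTCCT on the other strand, since AP-1 and ETS factors are classical regulators of MMP promoters. The AP-1 motif was found in 4 of the 25, MMP7, MMP10, ADAMTS12 and PLAUR, beside 7.76% of 27305 promoters in all. The TATA motif was found in 2 (MMP7 and MMP10), beside 12.0% of all, and the ETS motif in 10, beside 33.7% of all. No match overlaps a match to another motif. The 4 promoters with an AP-1 match are shown 5′ to 3′ on the gene's strand, ending 50 bases past the start site, with the matches to the 3 motifs that lie within the printed stretch in capitals, because the members that share the match differed in level and change. An ETS match of MMP7 at -169 and the ETS match of ADAMTS12 at -215 lie upstream of the printed stretches. The stretches lie at chr11:102530698-102530897, minus strand (MMP7), chr11:102780579-102780778, minus strand (MMP10), chr5:33891941-33892140, minus strand (ADAMTS12) and chr19:43670120-43670369, minus strand (PLAUR).
MMP7: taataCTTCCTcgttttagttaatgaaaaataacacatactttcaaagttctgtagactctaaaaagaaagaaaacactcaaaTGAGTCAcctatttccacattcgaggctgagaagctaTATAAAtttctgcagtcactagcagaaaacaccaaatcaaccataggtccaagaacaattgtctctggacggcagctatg
MMP10: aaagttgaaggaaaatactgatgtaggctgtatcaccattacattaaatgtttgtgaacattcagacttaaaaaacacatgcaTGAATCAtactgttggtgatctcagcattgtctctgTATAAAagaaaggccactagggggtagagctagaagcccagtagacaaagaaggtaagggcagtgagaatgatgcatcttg
ADAMTS12: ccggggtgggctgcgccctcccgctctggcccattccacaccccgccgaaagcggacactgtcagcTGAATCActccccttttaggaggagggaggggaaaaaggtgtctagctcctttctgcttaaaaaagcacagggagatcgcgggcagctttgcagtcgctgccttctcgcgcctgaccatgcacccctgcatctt
PLAUR: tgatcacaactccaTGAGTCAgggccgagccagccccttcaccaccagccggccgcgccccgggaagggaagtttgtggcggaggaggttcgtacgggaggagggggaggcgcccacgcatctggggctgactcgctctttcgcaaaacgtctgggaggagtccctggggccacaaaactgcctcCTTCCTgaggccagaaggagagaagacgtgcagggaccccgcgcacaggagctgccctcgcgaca
In MMP7 and MMP10, which lie in the same run of MMP genes, the first base of the AP-1 match lies at position -67 from the start site, and the TATA match follows at -30 and -31. MMP7 rose in both knockdowns (2.41-fold and 1.36-fold), while MMP10 stayed at 1 to 9 counts per library. ADAMTS12, with its AP-1 match at -84 and no TATA match, fell, and PLAUR, with a match at -186, passed in no comparison. A match describes these letters only.

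Of the 15 tested genes of the AP-1 and ETS factor list, 4 rose and 6 fell with shAKR1B1, and 1 rose and 10 fell with shSORD. RUNX1 and RUNX2, which belong to neither family, are in that list and fell in both knockdowns. Among all genes 27.8% rose and 29.6% fell with shAKR1B1, and 27.5% and 29.0% with shSORD. The ETS factors ETV1, ETV4 and ETV5 rose with shAKR1B1 (log2 fold change 0.23, 0.61 and 0.30) and fell with shSORD (-0.64, -0.56 and -0.73). ETS2 fell in both (-0.64 and -0.23), ETS1 was called with shSORD alone (-0.21), and ELK3 passed in neither. FOSL1, which encodes the AP-1 subunit FRA1, was at 23.6, 21.4 and 21.8 CPM in control, 6.80, 7.03 and 8.63 CPM with shAKR1B1 and 4.56, 7.34 and 5.84 CPM with shSORD. All knockdown libraries lay far below the controls. It fell 2.96-fold (adjusted p = 9.87e-08) and 3.75-fold (adjusted p = 2.19e-08). JUN fell 2.42-fold with shAKR1B1 and 1.19-fold with shSORD, a difference of -1.02 (adjusted p = 5.85e-08). JUNB rose 1.33-fold with shSORD (adjusted p = 0.000631), the 1 gene of the list to do so. FOS rose 2.49-fold with shAKR1B1, from 4.36 ± 0.388 to 10.9 ± 0.658 CPM (SD, n = 3; edgeR adjusted p = 6.25e-08), and was at 0.15 with shSORD (adjusted p = 0.28).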

How the data were processed

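RNA was measured in 9 A549 libraries, 3 per group, made with a strand-marking poly(A) kit per the labels' protocols. The submitters' processing notes name cutadapt 1.9.1, STAR 2.5.2b, featureCounts 1.5.1, DESeq2 1.12.3 and GRCh37. The authors deposited whole-number counts per Ensembl gene, without normalization. The sources used here give no annotation release, strand setting or handling of multi-mapping reads. Every ID names a gene.

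Symbols came from a name table that matched 51996 of 57905 IDs, and exon lengths and overlaps from GENCODE 29, on another build. The main test was edgeR 4.0.16 (R 4.3.3): TMM, the default expression filter, 1 mean per group over all libraries, the quasi-likelihood test and Benjamini-Hochberg adjustment over 16916 genes. SE is the absolute log2 fold change over the square root of F. The fitting was tested on simulated data. Members and lists were chosen with earlier results of these data known. Full values were given for members changed at least 2-fold with a mean of 50 counts, TIMP1 to TIMP3 and the highest per length in each family, and for others where library values show a contrast. Companion genes named were those changed at least 2-fold against control with that mean, plus RECK, FURIN, BSG and TGM2; 1 gene is not reported here. SERPINE2, SERPINF2, TFPI2, LRP1, S100A10, SERPINH1, BMP1, PLG, RUNX1, RUNX2, TSPAN14, TSPAN15, TSPAN17 and TSPAN33 were added after their values were seen. So were PLOD1, PLOD2, COLGALT1, P4HA3, JUNB, ETS1, ETS2, ETV1, ETV4, ETV5 and ELK3.

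Alternatives were DESeq2 1.42.0, limma-voom 3.58.1, DESeq2 size factors, other filters, 6-library fits, a replicate block and each library left out. Deviations of same-numbered shAKR1B1 and shSORD libraries correlated (0.102, 0.193 and 0.144), so the numbers were taken to pair these groups from the data alone. Protein sequences were not used here.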

Additional observations from a re-analysis of the deposited data

How the results depend on the processing

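No fold change of a tested member reversed with a call under any alternative run. Leaving out 1 library in turn gave 945 member results, of which 883 kept their side of the threshold, 52 lost a call and 10 gained one, and of 806 results under the other alternatives 784 kept it, 15 lost a call and 7 gained one. The stricter filter (at least 50 counts in 3 libraries) tested 27 members, and 6 rose with shAKR1B1 against control in place of 10, and 3 were higher in shAKR1B1 than in shSORD cells in place of 6, since the scarce members were not tested. DESeq2 ended the rises of MMP11 and MMP16 with shAKR1B1 (adjusted p = 0.0506 and 0.0862), and limma-voom that of MMP16 (0.0636). With only the 6 libraries compared, the ADAM15 difference between the knockdowns lost its call (0.0771). With no expression filter the rises of TIMP2 and PLAT with shSORD did (0.109 and 0.116). Counts of members, of companion genes and of all genes that rose or fell otherwise stayed within 1.5 times the main count.

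With the replicate block over all 9 libraries, 10 members rose and 15 fell with shAKR1B1, 14 and 8 with shSORD, and 6 and 17 were higher and lower in shAKR1B1 than in shSORD cells, as without it. A block within the 6 libraries compared, chosen after seeing the data, changed no member's call between the knockdowns. Same-numbered control and knockdown libraries did not deviate together (correlations -0.0285 to 0.0314). In the block within the 6 libraries the rises of TIMP2 and PLAT with shSORD lost their calls (adjusted p = 0.0632 and 0.0569). The lower level of MMP24 with shAKR1B1 against control gained a call there (0.0111). Depth limits the size of the folds of TIMP3, ADAM28, ADAMTS1, LOX, MMP11 and MMP16, which average under 50 counts per library. It also limits that of MMP2 with shAKR1B1, which had 10 to 28 counts there. Its log2 fold change ranged from -4.63 to -3.79 with 1 library left out.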
